A study of Mus musculus with 4 samples.

Results

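The genes described here build the lysosome: the subunits of its proton pump, a set of its hydrolases with their cofactors, and proteins of its membrane. They were chosen by name, with earlier results of these data known. A member had a symbol starting with Atp6v or Atp6ap or was among 25 named lysosomal genes, and its probe set named exactly 1 gene in the platform's probe table. The rule gave 45 genes with 86 probe sets, out of 12393 genes on the array. Of the members, 21 are pump genes and 24 encode hydrolases, cofactors or membrane proteins. Arsb, Atp6v0c, Atp6v0d2, Atp6v1g3 and Atp6ap1l were not analysed here.

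Lysosomes are the acidic compartments in which phagocytes break down what they engulf. The vacuolar ATPase pumps protons into them: its cytosolic V1 sector splits ATP and turns a rotor, and its membrane-bound V0 sector carries the protons across. Most lysosomal hydrolases work only at the acidic pH that this pump sets. Macrophages are known for strong degradation, while dendritic cells (DCs) are known for milder degradation that leaves peptides for presentation to T cells.

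RNA came from 4 populations of myeloid cells of the large-intestinal lamina propria, the connective tissue under the gut epithelium, of C57BL/6J mice. The labels name no treatment, and age and the number of mice are not given in the sources used here. CX3CR1high macrophages were CD11c+ CD11b+ with a high level of the chemokine receptor CX3CR1, and the cells called CX3CR1- were CD11c+ CD11b+ without it. The cells called CD11b+ were CD11c- CD11b+, and DCs were CD11chigh CD11b-. The title of the series concerns the transcription factor Spi-C in CX3CR1high macrophages.

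Each population was measured on 1 array, without replicates, so no difference could be tested and precision is limited by having 4 arrays. Values are linear signal intensities on the authors' scale, with 1 probe set standing for each gene. A floor was set at a signal of 103, the median of all probe sets over the 4 arrays, and lower signals were set to it before a ratio was taken. Higher and lower, as counts of genes, mean a ratio of 2-fold or more. Between probe sets of the same gene, the SD of the log2 ratios of CX3CR1high macrophages was 0.39 over DCs, 0.42 over CX3CR1- cells and 0.33 over CD11b+ cells. This spread holds no difference between mice, cell sorts or hybridisations.

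Array medians ranged from 88.5 in DCs to 110.2 in CD11b+ cells. The 9 macrophage markers summed to 142634 in CX3CR1high macrophages, 78674 in CD11b+ cells, 61452 in CX3CR1- cells and 9072 in DCs, where Mertk, Mrc1 and Cd163 lay under the floor. The 8 measured DC markers summed to 42051 in DCs, 22213 in CX3CR1- cells, 7452 in CD11b+ cells and 5898 in CX3CR1high macrophages, where Itgae, Xcr1 and Flt3 lay under the floor. Markers of other cells also gave signals. The 11 measured epithelial markers summed to 17419 in CX3CR1high macrophages, 7435 in CX3CR1- cells, 4521 in DCs and 3070 in CD11b+ cells. The 5 measured monocyte markers summed to 33310 in CD11b+ cells, 21069 in CX3CR1- cells, 12227 in DCs and 3545 in CX3CR1high macrophages. Of these sums S100a4 alone gave 16540, 19758, 11507 and 2153. Chil3 lay under the floor in CX3CR1- cells, and Chil3, Vcan and F10 did in DCs. The 8 measured neutrophil markers summed to 8970 in CD11b+ cells and to 316 to 2111 in the others, and all lay under the floor in DCs. The markers of fibroblasts, muscle and endothelium summed to 62970 in CD11b+ cells, 23111 in CX3CR1- cells, 17456 in CX3CR1high macrophages and 5511 in DCs. The 5 measured B and plasma cell markers summed to 34703, 10617, 18883 and 10310 in the same order, of which Jchain gave 34144, 10329, 18478 and 10118. Of the mast cell markers only Kit and Hdc reached the floor in any array. Of the 5 measured eosinophil markers, 3 reached it in CX3CR1- cells (Siglecf 544, Ccr3 141 and Prg2 110). In CD11b+ cells 2 did, and in CX3CR1high macrophages and DCs 0 did. The lymphoid marker Il7r was highest in CX3CR1- cells (7311 against 1168 to 2636). The ratio of 3' to 5' probe set signals rises with RNA breakdown or incomplete copying. For Gapdh it was 1.08 in CX3CR1high macrophages, 2.17 in CD11b+ cells, 3.40 in CX3CR1- cells and 0.791 in DCs, and for Actb 1.68, 3.18, 2.76 and 1.11. It thus differed between CX3CR1high macrophages and both other CD11b+ populations as well as between these and DCs. The part of these cells and of this ratio in the lysosomal signals was not tested. In such bulk samples, fewer cells of a type and less RNA per cell cannot be told apart.

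Most members had their highest signal in CX3CR1high macrophages and their lowest in DCs. Of the 45 members, 39 reached the floor in at least 1 array, and 38 reached it in all 4. Among the 39, the highest signal was in CX3CR1high macrophages for 29 (74.4%), against 25.9% of all genes that reached the floor. The DCs held the highest signal of 6 members (15.4%; all genes 32.4%), CD11b+ cells of 3 (7.69%; all genes 23.4%) and CX3CR1- cells of 1 (2.56%; all genes 18.3%). The DCs held the lowest signal of 28 members (71.8%; all genes 38.2%), CD11b+ cells and CX3CR1- cells of 4 each (all genes 17.6% and 19.7%), and CX3CR1high macrophages of 3 (all genes 24.4%). For 22 members (56.4%) the full order ran from CX3CR1high macrophages through CD11b+ cells and CX3CR1- cells down to DCs, an order picked out after the values were seen. That order was found in 11.3% of all genes that reached the floor. Any difference counted as a step, however small. The members' median log2 ratio of CD11b+ over CX3CR1- cells was 0.17, and the SD between probe sets for this pair was 0.31. Further probe sets of Atp6v1a, Atp6v1d, Lamp2 and Scarb2 did not keep the full order. Sgsh reached the floor in CX3CR1high macrophages alone, so it had to differ, and its order among the other arrays is read from signals under the floor. Over the 38 members that reached the floor in all arrays, 28 were highest in CX3CR1high macrophages, 27 were lowest in DCs and 21 had the full order, against 23%, 33.8% and 9.69% of the 5881 genes that did so.

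Against DCs, 26 members were at least 2-fold higher in CX3CR1high macrophages and 2 were at least 2-fold lower, among 39 with a ratio. Over all genes with a ratio, 17.4% were higher and 10.2% lower. The median log2 ratio was 1.24 for the members and 0.02 for all genes. Without Sgsh, over genes at or over the floor in all arrays, 25 of 38 members were higher and 2 lower, against 15.2% and 10.5% of all genes. The higher members came from every role: 6 of 8 V1 subunits with a ratio, 2 of 5 V0 subunits, 1 of 2 accessory subunits, 6 of 9 genes of sphingolipid degradation, 2 of 3 of cholesterol and neutral lipid, 3 of 5 of glycan degradation, 2 of 3 other luminal proteins and 4 of 4 membrane proteins. Both lower members, Ppt1 and Gm2a, act on lipids or lipid-modified proteins. When all arrays were given the same median, which moved the median log2 ratio of all genes to -0.27, 17 members were higher and 3 lower, against 13.3% and 18.3% of all genes. The calls lost were those of Atp6v0b, Atp6v1h, Atp6ap1, Asah1, Arsa, Glb1, Naglu, Lamp2 and Scarb2. Averaging all probe sets of a gene ended the calls of Neu1 and Scarb2, and Atp6v0a1 and Sgsh then had no ratio. A floor at the 75th percentile ended the calls of Arsa, Atp6v0a1, Gaa, Glb1 and Mcoln1, while Naglu and Sgsh then had no ratio. Markers of other cells were also higher: 8 of 11 epithelial ones and, with a ratio, 7 of 10 of fibroblasts, muscle and endothelium. So were 3 of 3 neutrophil markers with a ratio. Of 5 monocyte markers 1 was higher (Chil3) and 2 were lower (Ccr2 and S100a4). Bounds with DCs under the floor, which could not come out lower, were 2, 4, 3 and 3 of these ratios in list order. The part of these cells was not tested.

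**Figure D1:**
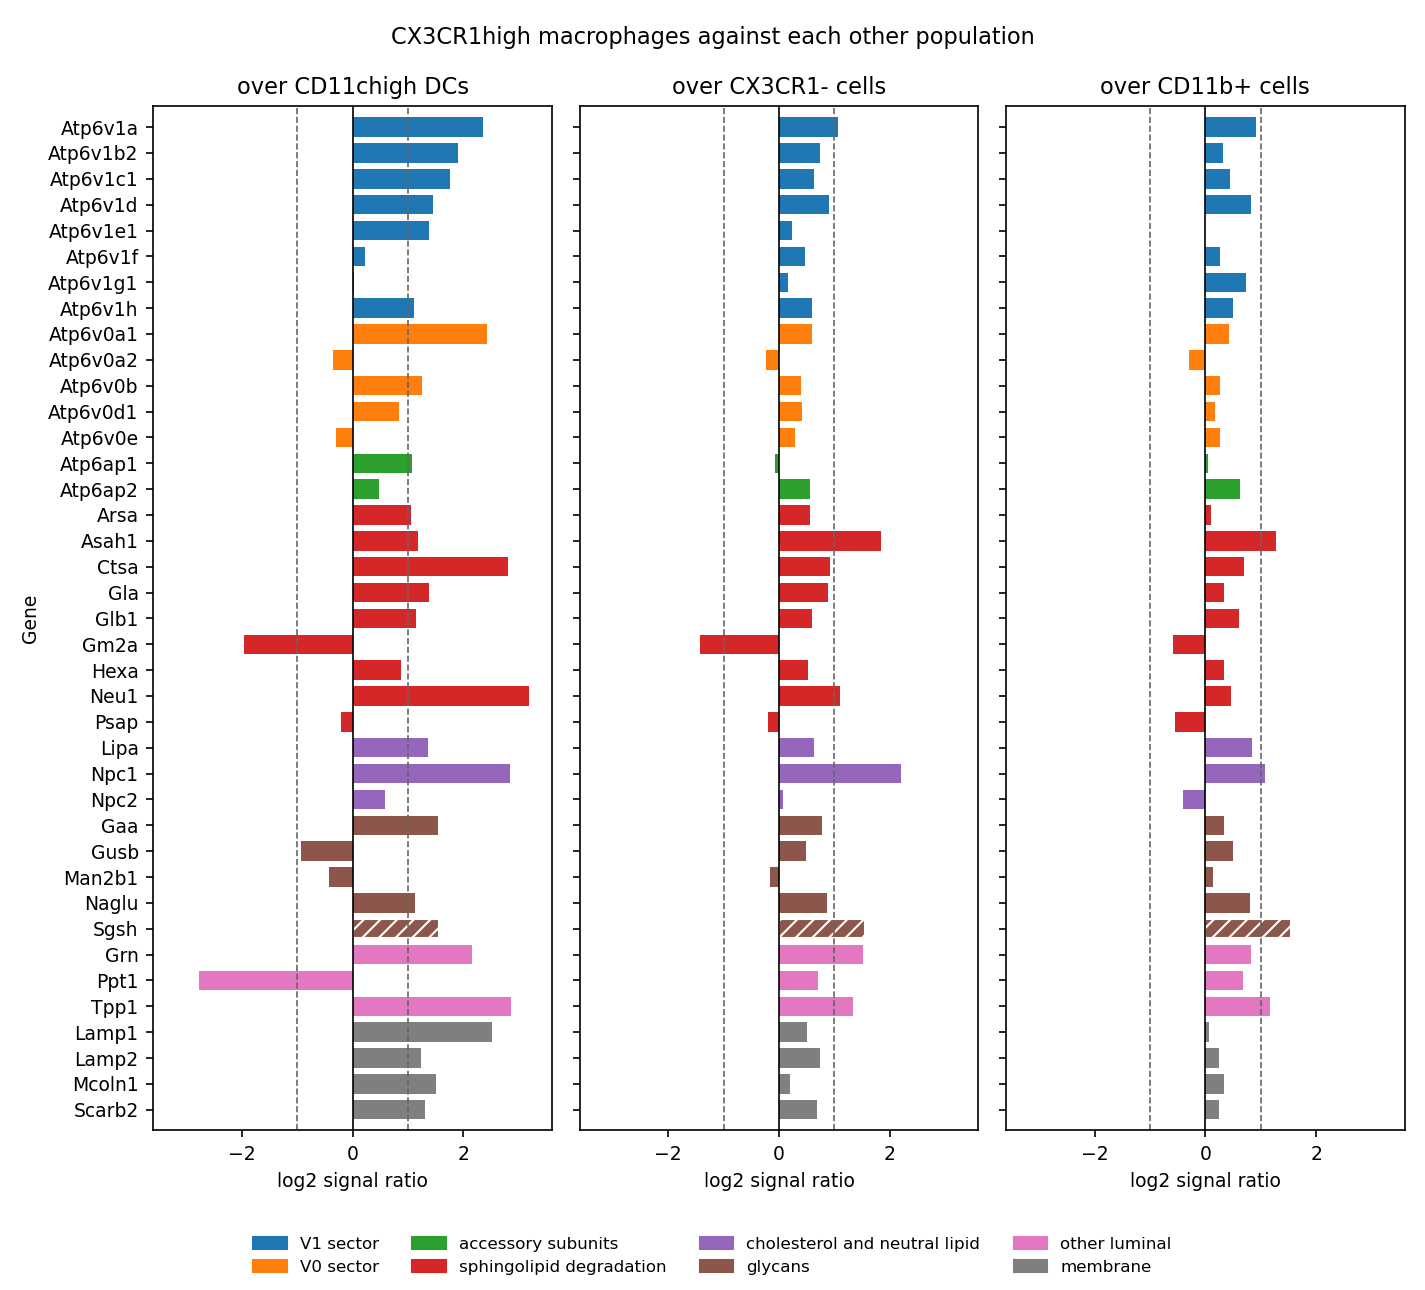
Bars give the log2 signal ratio of CX3CR1high macrophages over DCs, CX3CR1- cells and CD11b+ cells (1 array each, no error bars) for the 39 members with a ratio, coloured by role, with dashed lines at 2-fold. Hatched bars (Sgsh) are lower bounds. Over DCs 26 bars pass the upper line and those of Ppt1 and Gm2a pass the lower one, while over CD11b+ cells 4 pass the upper line and 0 the lower.

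In the V1 sector, the subunits with the widest ratios over DCs were Atp6v1a, Atp6v1b2 and Atp6v1c1. Atp6v1a, the catalytic subunit that splits ATP, had a signal of 6328 in CX3CR1high macrophages, 3336 in CD11b+ cells, 3032 in CX3CR1- cells and 1241 in DCs. The CX3CR1high macrophages thus stood apart at the top and DCs at the bottom, 5.10-fold apart. A second Atp6v1a probe set gave 1754, 640.0, 499 and 504 in the same order. Atp6v1b2, the subunit that alternates with the catalytic one in the V1 ring, stood at 3126, 2516, 1877 and 837, a ratio of 3.73-fold between CX3CR1high macrophages and DCs. Atp6v1c1, which helps to hold V1 on V0, stood at 7765, 5718, 5024 and 2283, or 3.40-fold. In both genes CX3CR1- cells lay nearer to CD11b+ cells than to DCs.

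Further V1 subunits differed less. Atp6v1d, part of the central rotor, was 2.73-fold higher in CX3CR1high macrophages than in DCs (5352 against 1959.6), Atp6v1e1 of the peripheral stalk 2.61-fold (5261 against 2016) and the regulatory subunit Atp6v1h 2.15-fold (2489 against 1157). Atp6v1e1 was nearly the same in CX3CR1high macrophages and CD11b+ cells (5281). Its probe sets disagreed in size: another set was within 2-fold over DCs, at 150.1 against a signal under the floor. The rotor subunit Atp6v1f (5800.4, 4805, 4169 and 4978 in the order above) and the stalk subunit Atp6v1g1 (4702, 2844, 4201 and 4621) stayed within 2-fold in every pair. With equal array medians both came to lie slightly lower in CX3CR1high macrophages than in DCs.

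In the V0 sector the subunits split. Atp6v0a1, an isoform of the large subunit that carries protons and helps to place the pump in a compartment, stood at 706 in CX3CR1high macrophages, 526 in CD11b+ cells, 469.5 in CX3CR1- cells and 131 in DCs. That put DCs alone near the floor, 5.40-fold under CX3CR1high macrophages. The signals of 3 further Atp6v0a1 probe sets were under the floor in all 4 arrays. Atp6v0a2, another isoform of the same subunit, was nearly level at 219.8, 269.6, 258 and 282. A further Atp6v0a2 set reached the floor in DCs alone (207), a bound of at least 2.01-fold over each other population. Atp6v0b, a subunit of the proton-carrying ring, was 2.37-fold higher in CX3CR1high macrophages than in DCs (1244 against 525). Atp6v0d1, which couples the rotor to the ring, was 1.79-fold higher (5215 against 2906). Atp6v0e, a small membrane subunit, had its highest signal in DCs, 7106, against 5770.4 in CX3CR1high macrophages.

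The accessory subunits also split. Atp6ap1, which takes part in pump assembly, stood at 4148 in CX3CR1high macrophages, 3993 in CD11b+ cells and 4356 in CX3CR1- cells, and at 1986 in DCs. All 3 CD11b+ populations were at least 2-fold over DCs. Atp6ap2, also known as the prorenin receptor, was within 2-fold in every pair (9881, 6384, 6742 and 7073).

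A last group of pump genes was under the floor in all 4 arrays. Its 6 genes were Atp6v0a4, Atp6v0e2, Atp6v1b1, Atp6v1c2, Atp6v1e2 and Atp6v1g2, with signals of at most 64.7. They encode isoforms known from specialised cells, such as Atp6v1b1 and Atp6v0a4 from acid-secreting cells of the kidney and Atp6v1g2 from neurons. In each case another isoform of the same subunit was above the floor, such as Atp6v1b2 for Atp6v1b1 and Atp6v1g1 for Atp6v1g2.

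**Figure D2:**
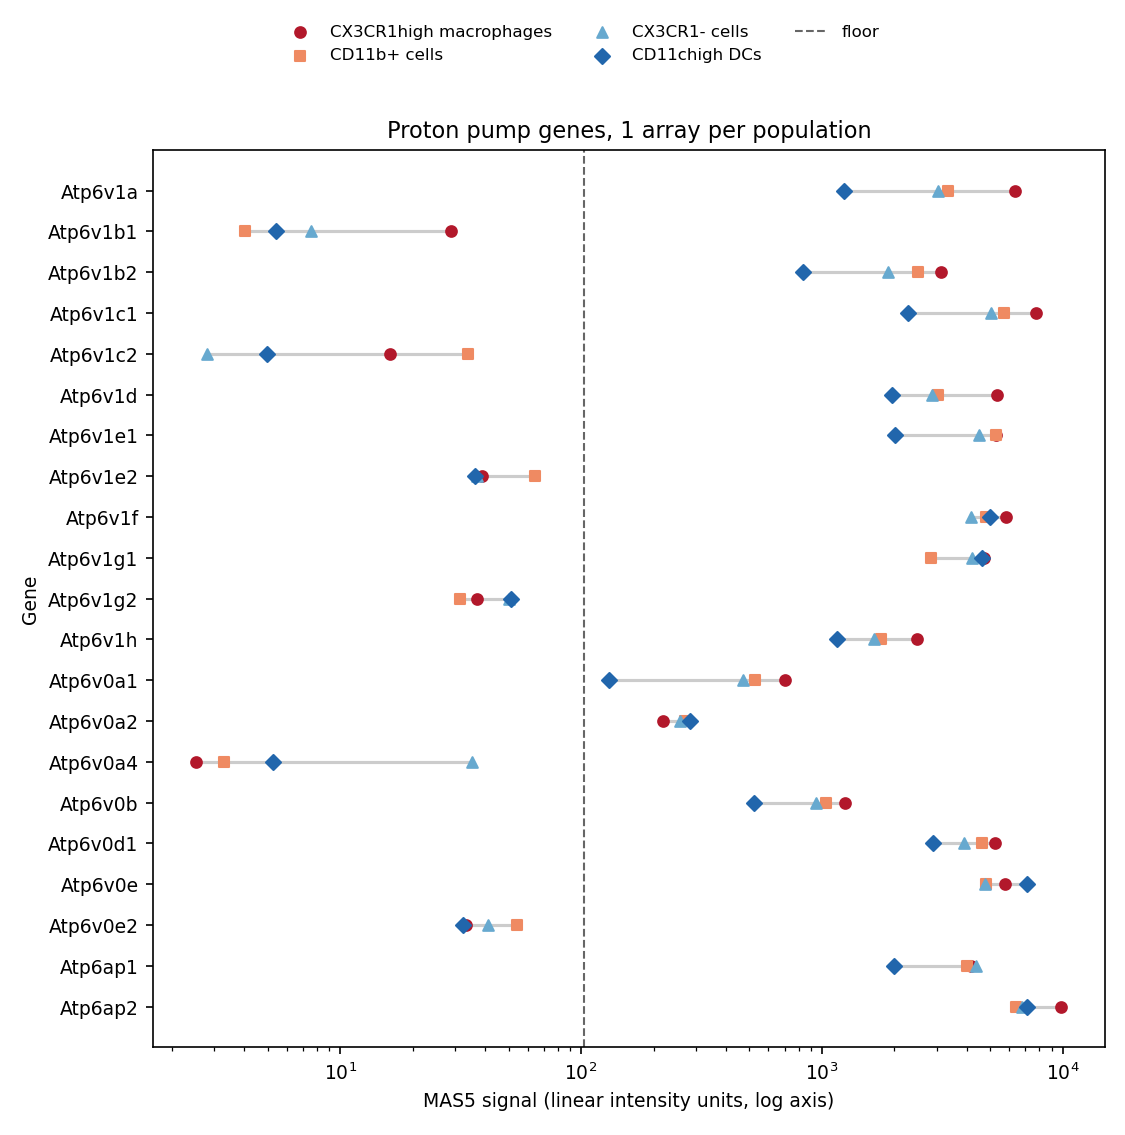
Points give the signal of the 21 pump genes (linear intensity units on a log axis) in the 4 populations, 1 array each, and the dashed line is the floor of 103. For Atp6v1a, Atp6v1b2, Atp6v1c1 and Atp6v0a1 the DC point stands well to the left of the others, and 6 genes lie wholly left of the floor.

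Among the genes of sphingolipid degradation, the sialidase complex gave the widest ratios. Neu1, the sialidase that removes terminal sialic acid, stood at 1237 in CX3CR1high macrophages, 899.9 in CD11b+ cells, 575 in CX3CR1- cells and 137 in DCs. The DCs lay close to the floor, 9.05-fold under CX3CR1high macrophages, while 2 further Neu1 probe sets were under the floor in all arrays. Ctsa, or cathepsin A, the protein that shields Neu1 and the galactosidase Glb1 in their shared complex, stood at 9394, 5789, 4969.8 and 1346 in the same order. It was 6.98-fold higher in CX3CR1high macrophages than in DCs. Glb1, which removes galactose from GM1 ganglioside, differed less, at 808, 531, 534 and 367 (2.21-fold).

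Other enzymes of this group were higher in CX3CR1high macrophages than in DCs by a smaller ratio. Gla, the galactosidase that degrades globotriaosylceramide, stood at 1613, 1275, 870.3 and 621 (2.60-fold). Arsa, which removes sulfate from sulfatide, stood at 705, 659, 481 and 341 (2.07-fold), and Hexa, a subunit of beta-hexosaminidase, at 13140.4, 10360.3, 9168 and 7153 (1.84-fold). The order of the 4 populations was the same in these 3 genes. Asah1, the acid ceramidase, was set apart by CX3CR1high macrophages alone. Its signal was 8915 there, against 3662 in CD11b+ cells, 2491 in CX3CR1- cells and 3953 in DCs, so it was at least 2-fold over each of the others. Psap, the precursor of the saposin cofactors, was highest in CD11b+ cells (37105) and lowest in CX3CR1high macrophages (25249). Its second probe set was highest in DCs, at 11205 against 8127 to 10067 in the others.

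For cholesterol and neutral lipid, Npc1 showed the steepest gradient. Npc1 is the membrane protein through which cholesterol leaves the lysosome. It stood at 1025 in CX3CR1high macrophages, 486 in CD11b+ cells, 223 in CX3CR1- cells and 143 in DCs. Each step from CX3CR1high macrophages to CD11b+ cells (2.11-fold) and from these to CX3CR1- cells (2.18-fold) passed the limit, and the ratio of the ends was 7.19-fold. Its luminal partner Npc2, which hands cholesterol to Npc1, was within 2-fold in every pair and highest in CD11b+ cells (18088, 23909, 17309.7 and 12111). The second Npc2 probe set was highest in CX3CR1high macrophages and lowest in CX3CR1- cells (16188, 16060, 11760 and 13250.5). Lipa, the acid lipase that frees cholesterol from its esters, was 2.58-fold higher in CX3CR1high macrophages than in DCs (2951 against 1142).

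Of the enzymes that degrade glycans, Gaa, Naglu and Sgsh were higher in CX3CR1high macrophages than in DCs. Gaa, which degrades glycogen, stood at 751, 591, 438 and 257 in the order CX3CR1high macrophages, CD11b+ cells, CX3CR1- cells and DCs (2.92-fold between the ends). Naglu and Sgsh both act in heparan sulfate breakdown. Naglu stood at 361, 207, 197 and 166 (2.18-fold). Sgsh reached the floor in CX3CR1high macrophages alone, at 302 against 101, 84.6 and 47.5, which gives a bound of at least 2.93-fold over each other population. Its second probe set was under the floor in all arrays.

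Among the other luminal proteins, Tpp1 and Grn followed the main order. Tpp1, a peptidase that takes tripeptides off the ends of proteins, stood at 4978, 2219, 1978 and 689.9, and both of its probe sets gave the same order (2074, 825, 727 and 162 for the second). The CX3CR1high macrophages were 7.21-fold over DCs, 2.52-fold over CX3CR1- cells and 2.24-fold over CD11b+ cells. Grn, or progranulin, which is cut into granulins in the lysosome, stood at 10539, 5967, 3672 and 2371, or 4.45-fold from end to end. The other 2 Grn probe sets kept this order with smaller ratios over DCs.

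Every membrane protein of the set was at least 2-fold higher in CX3CR1high macrophages than in DCs. Lamp1, an abundant glycoprotein that lines the lysosomal membrane, stood at 16196 in CX3CR1high macrophages, 15484 in CD11b+ cells, 11456 in CX3CR1- cells and 2849 in DCs. The first 3 were within 1.41-fold of each other, and DCs lay 5.68-fold under the highest. Lamp2, its relative with a role in autophagy, stood at 8228, 6959, 4949 and 3477 (2.37-fold). Mcoln1, a cation channel that releases calcium from the lysosome, stood at 681, 538, 590.2 and 239 (2.84-fold). Scarb2, the receptor that carries glucocerebrosidase to the lysosome, stood at 3131, 2654, 1939 and 1271 (2.46-fold), but its second probe set was highest in DCs (1427, 1362, 1319.7 and 1840.4), so the direction of Scarb2 depends on the probe set.

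**Figure D3:**
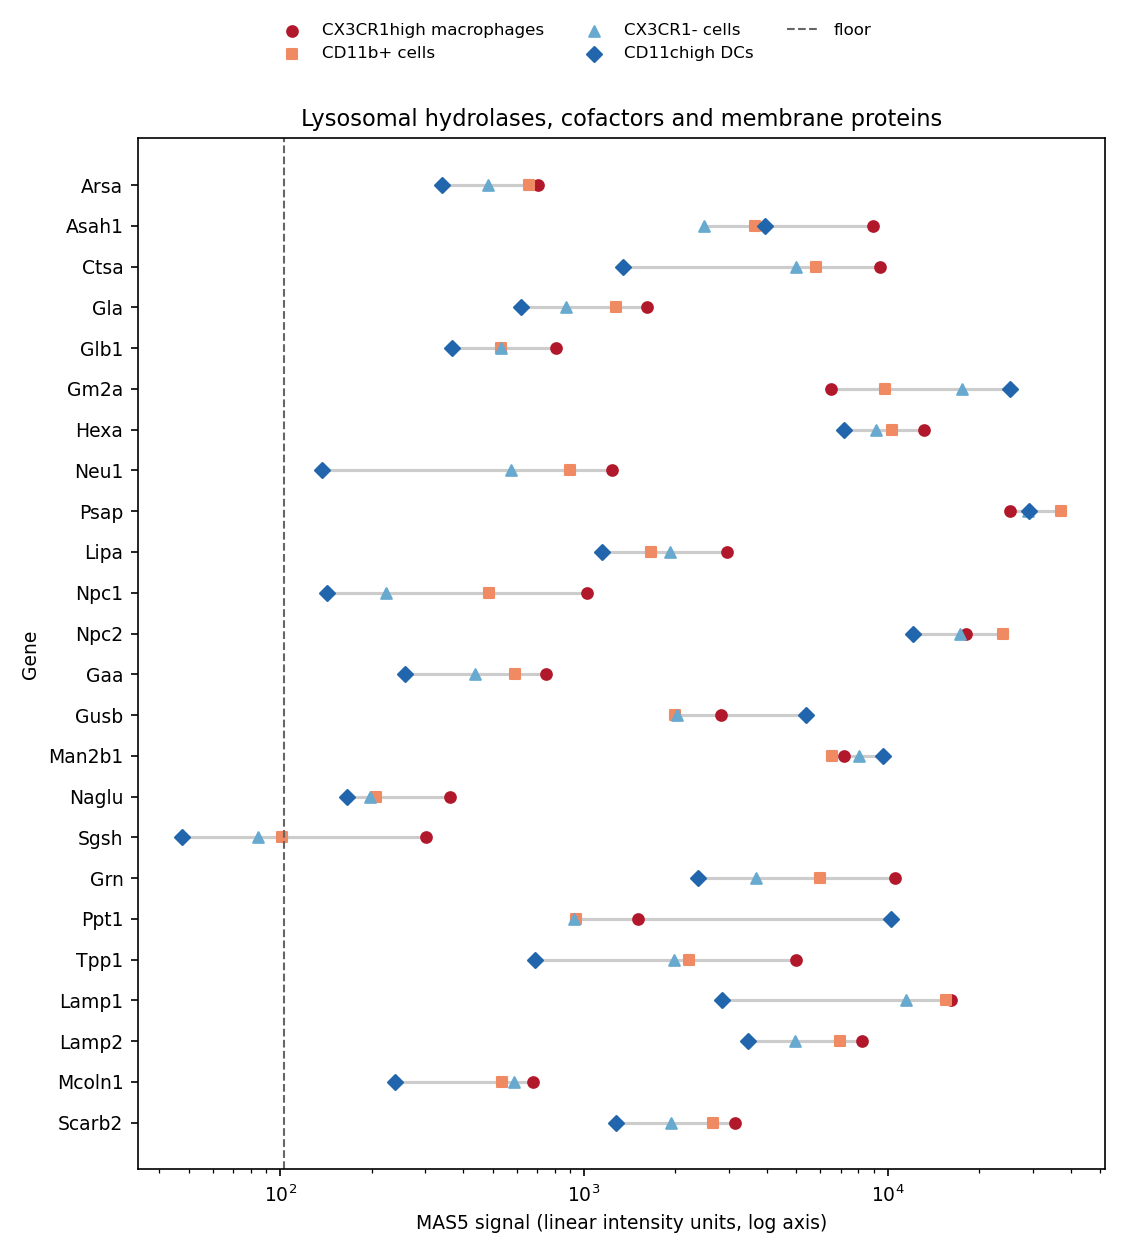
Points give the signal of the 24 hydrolase, cofactor and membrane protein genes (linear intensity units on a log axis) in the 4 populations, 1 array each, and the dashed line is the floor of 103. The DC point is the lowest for 18 genes and the highest for Gm2a, Gusb, Man2b1 and Ppt1.

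A small number of members ran the other way and were highest in DCs. Ppt1, the thioesterase that takes palmitate off proteins, stood at 10267 in DCs against 1506 in CX3CR1high macrophages, 939.9 in CD11b+ cells and 929.6 in CX3CR1- cells. The DCs were 6.82-fold over CX3CR1high macrophages and 11.0-fold over CX3CR1- cells. The second Ppt1 probe set gave 7842 in DCs and between 384 and 883 in the others, so both sets single out DCs.

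Gm2a, the activator protein that lifts GM2 ganglioside out of membranes for hexosaminidase and can load lipids onto CD1 molecules, had an order opposite to the main one. Its signal was 25322 in DCs, 17499 in CX3CR1- cells, 9752 in CD11b+ cells and 6516 in CX3CR1high macrophages. That is 3.89-fold between the ends, and 2.69-fold between CX3CR1- cells and CX3CR1high macrophages. The second Gm2a probe set gave 8065 in DCs, 1275 in CX3CR1- cells, 705 in CD11b+ cells and 743 in CX3CR1high macrophages, which sets DCs further apart. Its enzyme partner gene Hexa had the main order, as given above.

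Gusb, the enzyme that removes glucuronic acid from glycosaminoglycans, stood at 5395 in DCs, 2831 in CX3CR1high macrophages, 2029 in CX3CR1- cells and 1994 in CD11b+ cells. The DCs were 2.71-fold over CD11b+ cells and 2.66-fold over CX3CR1- cells. Over CX3CR1high macrophages the ratio of 1.91-fold was just under the limit, and it was 2.55-fold with the second probe set. Man2b1, which removes mannose from glycoproteins, was also highest in DCs (9612 against 6538 to 8032), within 2-fold in every pair. The pump genes Atp6v0a2 and Atp6v0e were the other 2 members with their highest signal in DCs, both within 2-fold of every population by the sets that stand for them.

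**Figure D4:**
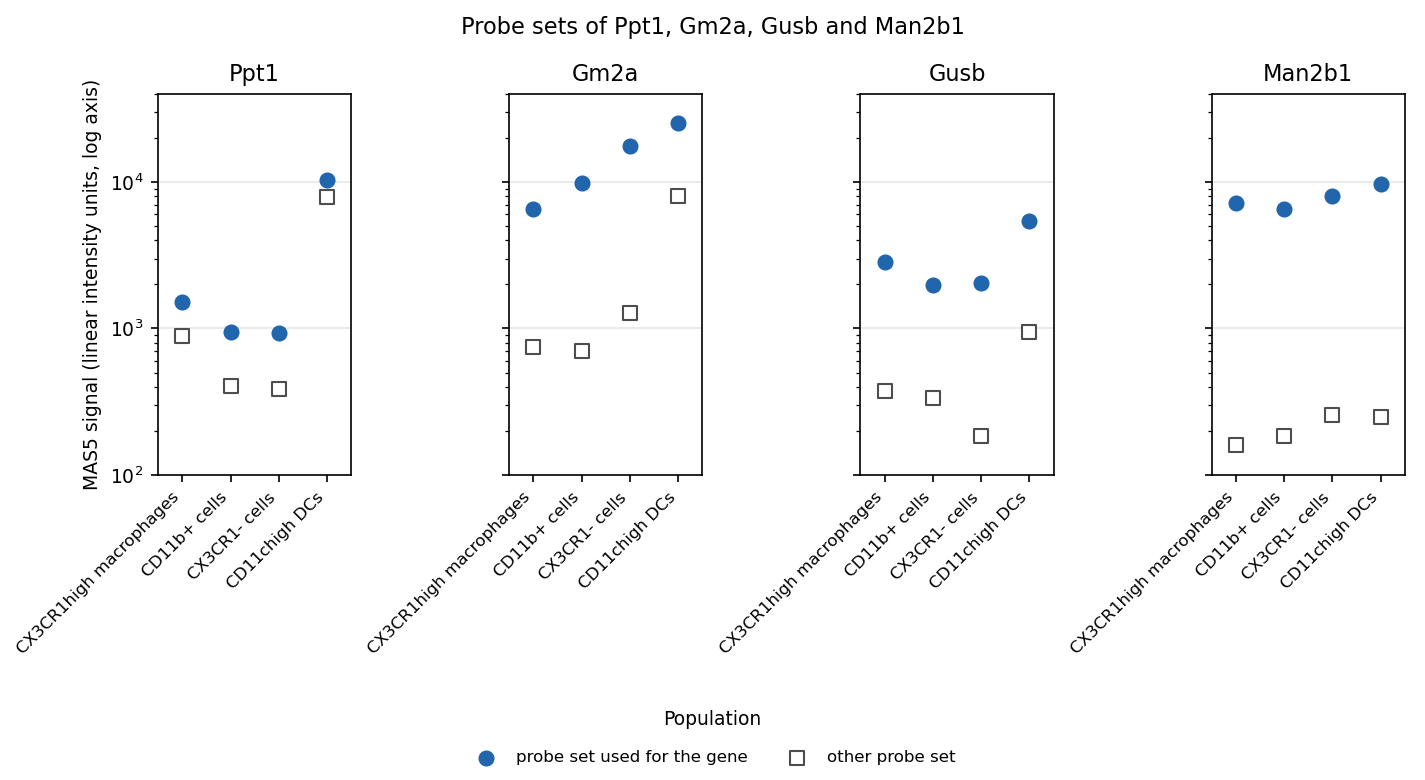
Points give the signal of each probe set of Ppt1, Gm2a, Gusb and Man2b1 (linear intensity units on a log axis) in the 4 populations, 1 array each. Filled circles are the set that stands for the gene and open squares the other set; for Ppt1, Gm2a and Gusb both sets are highest in DCs, while the second Man2b1 set is highest in CX3CR1- cells (259), with DCs close to them.

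Probe sets of one member agreed in part. In the comparison of CX3CR1high macrophages with DCs, 32 of 41 further probe sets had a ratio, and 26 of these made the same call as the set that stands for the gene. None made the opposite call. Of 24 further sets of called members, 20 kept the call and 23 the sign, and the sign differed for Scarb2. Besides Scarb2, the call was lost with a further set of Atp6v0b (1.57-fold), Gaa (1.71-fold) and Atp6v1e1. In other pairs a smaller share kept the call: 3 of 5 for CX3CR1high macrophages against CX3CR1- cells, 10 of 18 for CD11b+ cells against DCs and 5 of 10 for CX3CR1- cells against DCs. For CX3CR1high macrophages against CD11b+ cells 1 of 1 did.

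The labels give CX3CR1- cells as CD11c+ CD11b+, like CX3CR1high macrophages. Against CX3CR1- cells, CX3CR1high macrophages were at least 2-fold higher for 7 of 39 members with a ratio and lower for 1. All genes gave 8.56% higher and 6.54% lower. The median log2 ratio was 0.59 for the members and 0.02 for all genes, and 34 members were above 0. The 7 higher members were Npc1 (4.60-fold), Asah1 (3.58-fold), Grn (2.87-fold), Tpp1 (2.52-fold), Neu1 (2.15-fold), Atp6v1a (2.09-fold) and Sgsh as a bound, and the lower one was Gm2a. Without Sgsh, 6 of 38 members at or over the floor in all arrays were higher, against 6.8% of such genes. A further Grn probe set gave 1.60-fold, and the second Gm2a set 1.72-fold, so both calls depend on the set. Further sets of Ppt1 (2.30-fold), Lamp2 (2.10-fold) and Gusb (2.02-fold) were higher in CX3CR1high macrophages, though the sets that stand for them were not. Of the pump genes Atp6v1a passed the limit with the set that stands for it, and further sets of Atp6v1d (2.93-fold), Atp6v1c1 (2.31-fold) and Atp6v1e1 (2.06-fold) passed it too. The median log2 ratio of the V1 subunits was 0.61. Of the markers of other cells, 7 of 11 epithelial ones and 3 of 3 neutrophil ones with a ratio were higher. Of 5 monocyte ones 1 was higher (Chil3, 798 against 53.3) and 2 were lower (Ccr2 and S100a4). Bounds with CX3CR1- cells under the floor, which could not come out lower, were 2, 2 and 1 of these ratios in the same order. The part of these cells was not tested.

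Against CD11b+ cells, which lack CD11c, the members' ratios were the smallest of the 3 comparisons by their median. CX3CR1high macrophages were at least 2-fold higher for 4 of 39 members and lower for 0, against 4.66% and 5.83% of all genes. These 4 were Sgsh as a bound, Asah1 (2.43-fold), Tpp1 (2.24-fold) and Npc1 (2.11-fold), and all of them also passed the limit over the other populations. Without Sgsh, 3 of 38 members at or over the floor in all arrays were higher, against 3.37% of such genes. The median log2 ratio was 0.35 for the members and -0.02 for all genes. No pump gene passed the limit with the set that stands for it, with log2 ratios between -0.29 for Atp6v0a2 and 0.92 for Atp6v1a. Further sets did, for Atp6v1a (2.74-fold), Atp6v1d (2.09-fold) and Atp6v1e1 (at least 3.93-fold). Outside the pump, a further set of Ppt1 passed the limit (2.19-fold). All 11 measured epithelial markers were higher in CX3CR1high macrophages, 3 of them as bounds that could not come out lower. Lower were 6 of 11 markers of fibroblasts, muscle and endothelium, 5 of 5 of monocytes and 2 of 5 of neutrophils with a ratio. The monocyte marker Chil3, for example, stood at 798 against 13237. Their part was not tested.

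The other CD11b+ populations also stood above DCs. In CD11b+ cells 17 of 38 members were at least 2-fold higher than in DCs and 3 were lower (all genes 17% and 10.4%), with a median log2 ratio of 0.97. The 3 lower members were Gm2a, Gusb and Ppt1. In CX3CR1- cells 11 of 38 were higher and 2 lower (all genes 13.7% and 8.7%), with a median of 0.53, and the lower members were Gusb and Ppt1. With equal array medians, and also with the mean over probe sets, the higher counts were 11 in CD11b+ cells and 7 in CX3CR1- cells. Between CD11b+ cells and CX3CR1- cells 1 of 38 members was higher, Npc1, and 0 were lower (all genes 5.19% and 3.55%). These pairs share arrays with one another and with the comparisons above, so they are not independent. Markers of fibroblasts, muscle and endothelium were higher than in DCs alongside, 7 of 11 in CD11b+ cells and 7 of 10 in CX3CR1- cells. In CD11b+ cells 4 of 5 monocyte and 3 of 5 neutrophil markers with a ratio were higher than in DCs too, in CX3CR1- cells 2 of 4 and 1 of 1. Bounds with DCs under the floor, which could not come out lower, were 5, 3 and 5 ratios of these 3 lists in CD11b+ cells. In CX3CR1- cells they were 4, 2 and 1. The part of these cells was not tested.

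**Figure D5:**
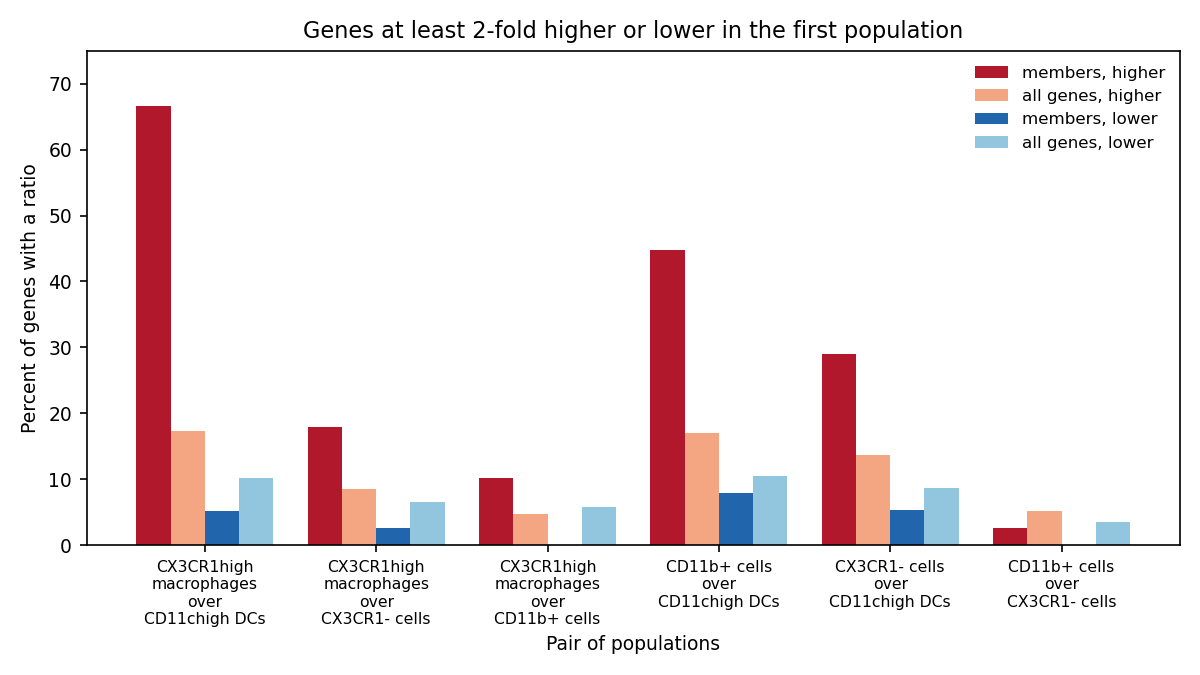
Bars give the percent of genes with a ratio that were at least 2-fold higher (red shades) or lower (blue shades) in the first population of each pair, for the lysosomal members (dark) and for all genes (light), 1 array per population. The members stand at 66.7% higher against 17.4% of all genes in the pair of CX3CR1high macrophages and DCs.

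The promoters of the members were searched for a sequence that their rule did not use. Lysosomal genes are known to carry the CLEAR element, an E-box recognised by TFEB and related factors. An excess among members picked by lysosomal name was thus likely beforehand, and the search used no array signal. RefSeq promoter sequences (GRCm38.p6, 250 bases before to 50 after the start) were used for 38 of the 45 members, Npc1 not among them. The shares of all genes were taken without the limit by chromosome that was set for the members. The letters TCACGTG, on either strand and holding the E-box CACGTG, were found in 13 of these 38 (34.2%), against 6.10% of 9887 genes measured on the array and 4.29% of all 27025 genes in the table. The core CACGTG alone was found in the same 13, against 10.8% of the genes measured. The palindrome that extends TCACGTG by an A was found in 6 of 38, against 1.76%, and the full palindrome of the CLEAR element, with a further base on each side, in 0 of 38, against 0.556%. The 13 with TCACGTG were Arsa, Atp6v0b, Atp6v0d1, Atp6v0e, Atp6v1a, Ctsa, Gaa, Gla, Glb1, Lamp1, Mcoln1, Naglu and Sgsh. Shown are the stretches upstream of the start for the 4 genes with more than 1 match there and for the heparan sulfate pair, 5′ to 3′ on the gene's strand, with matches in capitals.
Lamp1, chr8:13159084-13159160, plus strand: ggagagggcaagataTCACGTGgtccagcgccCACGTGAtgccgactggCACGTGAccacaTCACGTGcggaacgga
Mcoln1, chr8:3500432-3500495, plus strand: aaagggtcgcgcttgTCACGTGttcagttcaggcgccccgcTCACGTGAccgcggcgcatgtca
Atp6v0b, chr4:117887334-117887381, minus strand: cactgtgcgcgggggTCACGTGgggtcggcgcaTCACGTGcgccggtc
Gla, chrX:134601178-134601248, minus strand: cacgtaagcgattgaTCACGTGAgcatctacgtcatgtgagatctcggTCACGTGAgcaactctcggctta
Naglu, chr11:101070005-101070041, plus strand: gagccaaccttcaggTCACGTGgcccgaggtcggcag
Sgsh, chr11:119355518-119355554, minus strand: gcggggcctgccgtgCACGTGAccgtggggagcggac

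The Lamp1 stretch holds 4 matches and those of Mcoln1, Atp6v0b and Gla 2 each. Of the 13 members with a match, 11 were at least 2-fold higher in CX3CR1high macrophages than in DCs and 0 lower (median log2 ratio 1.38). Without Sgsh the count was 10 of 12. Of the 19 with a promoter sequence, a ratio and no match, 10 were higher and 2 lower, with a median of 1.06. Over CX3CR1- cells the medians were 0.60 with and 0.55 without a match, and over CD11b+ cells both were 0.34. Over all genes with a ratio, 17.4% were higher than in DCs and 10.2% lower. A match is a run of letters and not a measured binding site.

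Lysosomal genes outside the set were read from lists of names, which were also chosen with earlier results of these data known. Among other hydrolases, 9 of 14 measured genes were at least 2-fold higher in CX3CR1high macrophages than in DCs and 0 lower (median log2 ratio 1.31). Over all genes with a ratio, 17.4% were higher and 10.2% lower. Among the hydrolases at or over the floor in all arrays, 8 of 12 were higher, against 15.2% of such genes. Hgsnat, the acetyltransferase of heparan sulfate breakdown, stood at 1873, 924, 361 and 331 in the order CX3CR1high macrophages, CD11b+ cells, CX3CR1- cells and DCs, and the lysosomal phospholipase Pla2g15 at 1267, 729.8, 404 and 77.9. Over CX3CR1- cells 6 of 14 were higher and 0 lower (all genes 8.56% and 6.54%), and over CD11b+ cells 3 and 0 (all genes 4.66% and 5.83%). Among other membrane and pump proteins, 5 of 10 with a ratio were higher than in DCs and 0 lower (median 1.07). Of those at or over the floor in all arrays, 4 of 8 were higher. The 5 included Tcirg1, which encodes the a3 subunit of the pump (1710.4 against 404, 4.23-fold), and the metal transporter Slc11a1 (9.38-fold). Of the cathepsins and Lgmn, 5 of 9 were higher than in DCs and 0 lower (median 1.26), and 5 of the 8 at or over the floor in all arrays were higher.

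Regulators and sorting genes were read the same way. Of 13 measured MiT factors, sorting receptors and tethering proteins, 5 were at least 2-fold higher in CX3CR1high macrophages than in DCs and 1 lower (median log2 ratio 0.60), against 17.4% and 10.2% of all genes. Among the 5, Tfec reached the floor in CX3CR1high macrophages alone, and without it 4 of 12 were higher. Tfeb, a main activator of lysosomal genes, stood at 346 in CX3CR1high macrophages, 354 in CD11b+ cells, 255 in CX3CR1- cells and 153 in DCs. Its relative Mitf stood at 783, 501, 517 and 299, and Tfec at 227 with the others under the floor. Flcn, which acts in the control of these factors at the lysosome, stood at 1316, 1088, 517 and 231. The lower gene was Igf2r, a receptor that carries hydrolases to the lysosome by mannose 6-phosphate (126 against 407), and the other such receptor, M6pr, was within 2-fold (4414 against 6107).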

How the data were processed

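Per the labels' protocols, RNA of 4 sorted populations was turned into biotin-labelled target and put on 1 Affymetrix array each. The authors deposited signal intensities on a linear scale, and the submitters' processing notes name MAS5; version and genome build are not given in the sources used here. The mean of each array with 2% trimmed at each end was 500.3, so the authors' scaling was kept. Of 22690 probe sets, 20380 named exactly 1 gene and were used. Each gene was read from the set with the highest mean log2 signal, sets ending in _x_at last. Signals under 103, the median of all non-control sets over the 4 arrays, were raised to that floor. Ratios with 1 signal below it are bounds, and none was taken with both below. Members and lists were chosen with earlier results of these data known. Any member may be named; other genes come from lists. The ratio calls were tested on simulated data. Promoters were searched in RefSeq sequences. Alternatives numbered 8, and 1 was added after the data were seen. Python 3.11.15, pandas 2.3.3 and numpy 2.4.6 were used.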

Additional observations from a re-analysis of the deposited data

How the results depend on the processing

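The 8 first alternatives were other floors, no floor, a pseudocount, quantile normalization, equal array medians, the mean over probe sets, and leaving out shared probe sets. Recomputed counts stayed within 1.5 times the main one in 123 cases and moved further in 21, and none of the moves came from counting only genes at or over the floor in all arrays, chosen after seeing the data. With equal medians 17 members were higher in CX3CR1high macrophages than in DCs, 11 in CD11b+ cells and 7 in CX3CR1- cells; the last 2 counts were 11 and 7 with the mean over probe sets as well. Lower than CX3CR1- cells in CX3CR1high macrophages were 2 members with no floor and 2 with the pseudocount, and lower than CD11b+ cells was 1 with no floor. Between CD11b+ and CX3CR1- cells the higher count was 0 under a 75th percentile floor and 2 with no floor or the pseudocount, and the lower count 1 with either. The CD11b+ cells held the highest signal of 6 members with the 25th percentile floor, no floor or the pseudocount and of 0 without shared probe sets, and CX3CR1- cells of 2 in all 4. No called ratio of CX3CR1high macrophages changed sign. No paired analysis was possible because each population has 1 array. Signals under the floor give bounds at most.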

Other observations

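Some lysosomal genes outside the set did not follow the main order. Acp5, the tartrate-resistant acid phosphatase known from osteoclasts and tissue macrophages, stood at 4425 in CX3CR1high macrophages and 3387 in CX3CR1- cells, against 1221 in DCs and 944 in CD11b+ cells. Laptm5, a lysosomal membrane protein of blood cells, was highest in CX3CR1- cells (16576) and 2.49-fold lower in CX3CR1high macrophages (6645). Fuca1, which removes fucose from glycans, was highest in DCs (5497 against 1970.2 to 2909), as Gusb was among the members. These genes were chosen after their values were seen.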
